A study of Mus musculus with 15 samples.

Results

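The 6 genes described here encode the proteins that cap the barbed end of actin filaments and the twinfilins that work with them: Capza1, Capza2, Capzb, Capg, Twf1 and Twf2. They were matched by symbol to 6 of the 49315 gene IDs in the count tables, and all 6 passed the filter on low counts. The set was drawn up around the low level of Capza1 after Lmod1 knockdown, so the values of the 6 genes in siLmod1 against siCtrl and in siSirt1 against siLmod1 are given as a description without a test. The siSirt1 libraries are set against the same siCtrl libraries that entered the choice. Capza1 and the ratios that contain it are therefore only described there too. Tests are given for the other 5 genes. These were also chosen with earlier results of these data known, so their p-values are not independent of the choice. RNA came from wild-type (WT) C57BL/6J primary myoblasts, the muscle precursor cells, which had received small interfering RNA by the RNAiMAX lipid reagent and had then differentiated for 1 day. The siLmod1 group received RNA against Lmod1, the siSirt1 group received RNA against Sirt1, and the siCtrl group received control RNA. Each group holds 5 polyA libraries, 1 for each of 5 replicates numbered 1, 2, 3, 4 and 7, for 15 libraries in all. The sample titles give only these replicate numbers. Libraries that share a number correlated with each other once group means were removed. They are therefore treated as paired here, and each number is called a line. Whether a line is a separate primary culture or a batch is not given by the titles. The sources used here give neither the age of the mice nor the sequences of the small interfering RNAs.

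Capping protein, called CapZ in muscle, is a dimer of an alpha and a beta subunit that closes the fast-growing barbed end of the filament and so stops monomers from being added or lost there. In striated muscle it sits at the Z-disc, where the barbed ends of the thin filaments are anchored, while leiomodins act at the opposite, pointed end. Capg is a monomeric capping protein of the gelsolin family that is abundant in macrophages, and the twinfilins are built of ADF homology domains that bind actin monomers and carry a tail that binds capping protein.

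The libraries held 27135398 to 31829009 counted reads in siLmod1, 21004908 to 27815744 in siSirt1 and 26097889 to 33601761 in siCtrl. Lmod1 was at 1.39 to 5.28 CPM, the count scaled to the library's total, in siLmod1 and 5.77 to 41.0 in siCtrl, and Sirt1 was at 3.37 to 11.4 CPM in siSirt1 and 16.5 to 34.2 in siCtrl. In edgeR's quasi-likelihood test with the line as a block, both targets were called lower in their own knockdown (Benjamini-Hochberg adjusted p = 2.8e-06 for Lmod1 and 0.00272 for Sirt1), while without the block neither was (adjusted p = 0.0685 and 0.0735). With the block each target also differed in the other knockdown. Lmod1 was lower in siSirt1 (log2 fold change -0.96, edgeR adjusted p = 0.0271), at 3.67 to 31.4 CPM. Sirt1 was higher in siLmod1 (0.54, edgeR adjusted p = 0.000141), at 27.1 to 52.4 CPM. Without the block neither was called (edgeR adjusted p = 0.716 and 0.514). The blocked call of Lmod1 in siSirt1 was lost without line 1, 4 or 7. The 8 myoblast markers summed to 5825 to 8210 CPM in siLmod1, 5327 to 6756 in siSirt1 and 6045 to 10570 in siCtrl. The sum was lower than siCtrl in 5 of 5 lines in each knockdown. Most of it came from Des, Myog, Myod1, Itga7 and Cdh15, and the markers did not all move alike. In siSirt1 the medians of Des, Myog, Itga7 and Cdh15 were below siCtrl, and those of Myod1, Myf5, Pax7 and Vcam1 were slightly above it. In siLmod1 the medians of Des and Myf5 were above siCtrl and those of the other markers below it. The part of these differences in the results below was not tested. The libraries of line 4 stood apart from all others on the first principal component, which held 39.6% of the variance, at 104.4 to 107.0 against -50.8 to 3.65. On the third component the siSirt1 library of line 1 was at 37.0, among the libraries of line 3 at 35.6 to 48.3 and away from the other 2 of line 1 at 8.74 and 7.87. With group means removed, it still correlated most with its own line, at 0.278 with the siCtrl and 0.304 with the siLmod1 library of line 1, against 0.269 and 0.205 with those of line 3, so its pairing is kept as labelled but is less sure than that of the other lines.

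The order of the 6 transcripts was set out per length, in TPM, the authors' values scaled by transcript length and library, on which genes can be compared. Capzb, the beta subunit, was the highest in each group, with a mean of 305.1 ± 82.3 TPM in siLmod1, 340.9 ± 74.6 in siSirt1 and 335.4 ± 71.5 in siCtrl (SD, n = 5). Capza2 came next in each group and did not overlap with Capzb in any of them. In siCtrl, the transcripts that followed had means of 81.8 ± 36.1 TPM for Twf2, 79.7 ± 8.80 for Capza1, 70.4 ± 45.4 for Twf1 and 42.0 ± 17.5 for Capg (SD, n = 5). The ranges of these neighbours overlapped, and Twf2 was above Capza1 in 3 of 5 lines. In siLmod1 Capza1 was instead the lowest of the 6, with every library below every library of Capg, the next in order. Capza3, the alpha subunit known from testis, had a count of 0 in all 15 libraries.

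**Figure D1:**
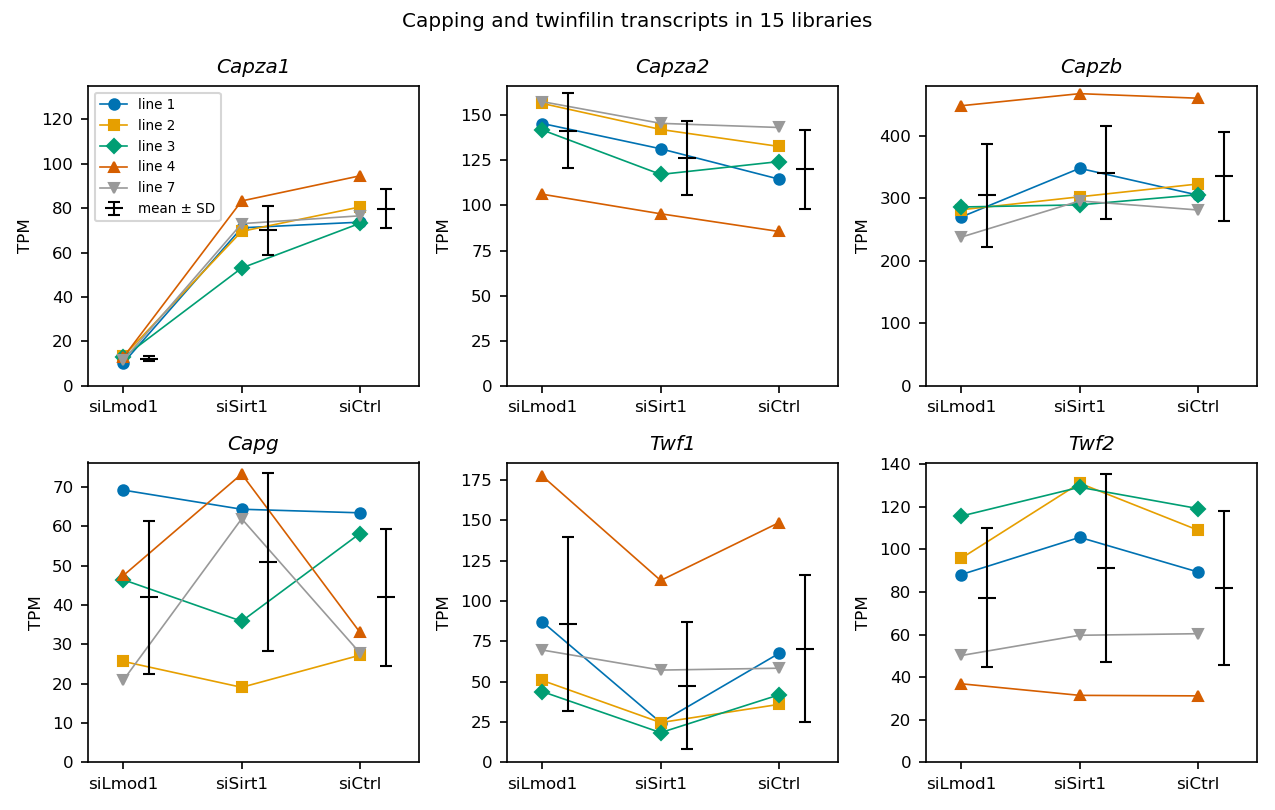
TPM of each of the 6 genes (1 panel each, linear axis from 0) in the 15 libraries, by group. Each drawn line joins the 3 libraries that share a replicate number, and the black bars give the mean ± SD of 5 libraries. Capza1 sits at 10.4 to 13.4 TPM in siLmod1, below all libraries of siSirt1 and siCtrl. Line 4 is the highest for Capzb and Twf1 and the lowest for Twf2 in each group.

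Capza1 (ENSMUSG00000070372, mm10 chromosome 3, 104822779 to 104864505, minus strand) encodes alpha subunit 1 of capping protein. In the siLmod1 libraries of lines 1, 2, 3, 4 and 7 it was at 10.4, 13.4, 12.9, 12.9 and 11.6 TPM. In siSirt1 it was at 71.2, 69.6, 53.1, 83.3 and 73.05 TPM, and in siCtrl at 73.7, 80.6, 73.2, 94.6 and 76.6 TPM. The siLmod1 libraries formed a narrow band far under the other 2 groups, while siSirt1 overlapped siCtrl. The counts behind these values were 372 to 480 reads per library in siLmod1, 1603 to 2701 in siSirt1 and 2343 to 3555 in siCtrl. Within lines, the log2 CPM difference of siLmod1 minus siCtrl was between -2.96 and -2.50, with a mean of -2.74 ± 0.17 (SD, n = 5 lines), so that the mean CPM was 14.9% of that in siCtrl. The fitted log2 fold change was -2.75 (SE 0.14), and it lay between -2.81 and -2.65 over the 22 other settings that were fitted. In bulk RNA, fewer cells that carry a transcript and less of it per cell cannot be told apart.

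Capza1 has close copies in the genome, so part of its reads could be shared between loci. The pseudogene Gm3608 matched 2859 bases of it at 99.5% identity. It had 3, 6, 3, 6 and 3 reads in the siLmod1 libraries, 21, 28, 24, 22 and 19 in siSirt1, and 30, 37, 34, 24 and 35 in siCtrl. These counts were low in the same libraries as Capza1 and came to 37 reads at most. The exons of Capza1 also share 166 bases with St7l on the opposite strand, and the TruSeq v2 kit keeps no strand, so reads of that stretch cannot be assigned to either gene. St7l had 953, 800, 890, 964 and 737 reads in siLmod1, 663, 535, 598, 644 and 438 in siSirt1, and 532, 640, 754, 765 and 685 in siCtrl. It was not low in siLmod1.

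Capza2 (ENSMUSG00000015733, mm10 chromosome 6, 17636234 to 17666972, plus strand) encodes alpha subunit 2, whose coding sequence is 76.9% identical to that of Capza1 over 861 bases with no shared run longer than 26 bases. It was at 145.4, 156.5, 141.8, 106.2 and 157.5 TPM in the siLmod1 libraries of lines 1, 2, 3, 4 and 7. It was at 131.4, 142.1, 117.2, 95.4 and 145.5 TPM in siSirt1, and at 114.6, 132.7, 124.3, 85.6 and 143.2 TPM in siCtrl. The ranges of the groups overlapped, but within each line siLmod1 was above siCtrl, by 0.15 to 0.33 on the log2 CPM scale (mean 0.21 ± 0.07, SD, n = 5 lines). The fitted difference was 0.19 (SE 0.15), and 0.20 (SE 0.047) with the line as a block.

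Capzb (ENSMUSG00000028745, mm10 chromosome 4, 139192899 to 139291818, plus strand) encodes the beta subunit that pairs with either alpha subunit. It was at 270.5, 282.0, 286.4, 448.5 and 238.3 TPM in siLmod1, at 348.3, 302.7, 289.8, 467.8 and 296.1 TPM in siSirt1, and at 305.4, 323.2, 306.1, 460.5 and 281.6 TPM in siCtrl. Line 4 was the highest in each group, and the groups overlapped. Within lines, siLmod1 was below siCtrl in 5 of 5, by -0.28 to -0.10 on the log2 CPM scale (mean -0.18 ± 0.07, SD, n = 5 lines). The fitted difference was -0.19 (SE 0.22), and -0.19 (SE 0.048) with the line as a block.

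**Figure D2:**
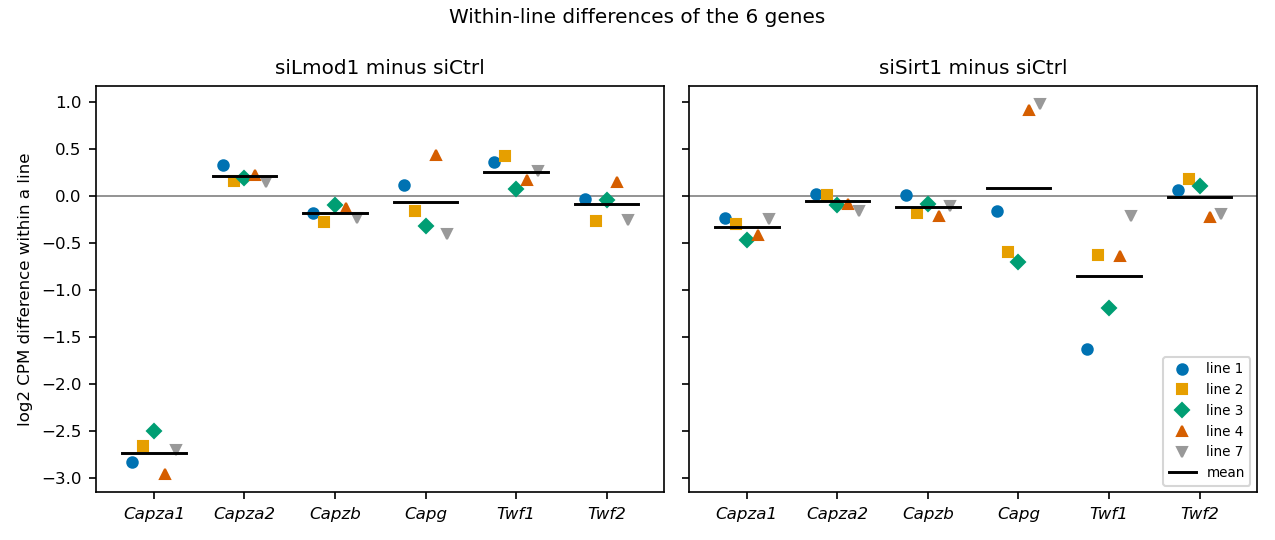
Within-line differences in log2 CPM (TMM-scaled) of the 6 genes for siLmod1 minus siCtrl (left) and siSirt1 minus siCtrl (right). Each marker is a line and each bar the mean of 5 lines. At left Capza1 lies at -2.96 to -2.50. At right Twf1 is below 0 in all 5 lines, most in line 1. Capg there splits between lines 4 and 7 above 0 and lines 1, 2 and 3 below.

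The make-up of the alpha subunits followed the low level of Capza1. Capza1 took 6.67%, 7.89%, 8.34%, 10.9% and 6.88% of the alpha-subunit TPM in siLmod1 and 39.2%, 37.8%, 37.1%, 52.5% and 34.9% in siCtrl, again for lines 1, 2, 3, 4 and 7. The summed TPM of the alpha subunits was 153.7 ± 20.6 in siLmod1 and 199.8 ± 16.6 in siCtrl (SD, n = 5). Set against Capzb, the alpha-to-beta ratio was 0.539 ± 0.165 in siLmod1 and 0.619 ± 0.142 in siCtrl, with overlapping ranges, and in each line it was lower in siLmod1. In line 4 it was 0.266 in siLmod1 and 0.391 in siCtrl, the lowest ratio of each group.

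In siSirt1, Capza1 took 35.1%, 32.9%, 31.2%, 46.6% and 33.4% of the alpha-subunit TPM, below siCtrl in 5 of 5 lines. The mean difference of -4.43 percentage points shares its siCtrl libraries with the contrast behind the choice of the genes, so it is not tested. Without the siSirt1 library of line 4 it was -7.12 points, and without the siCtrl library of line 4 it was -1.37 points. The alpha-to-beta ratio averaged 0.598 ± 0.139 in siSirt1 and 0.619 ± 0.142 in siCtrl (SD, n = 5), below siCtrl in 4 of 5 lines.

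**Figure D3:**
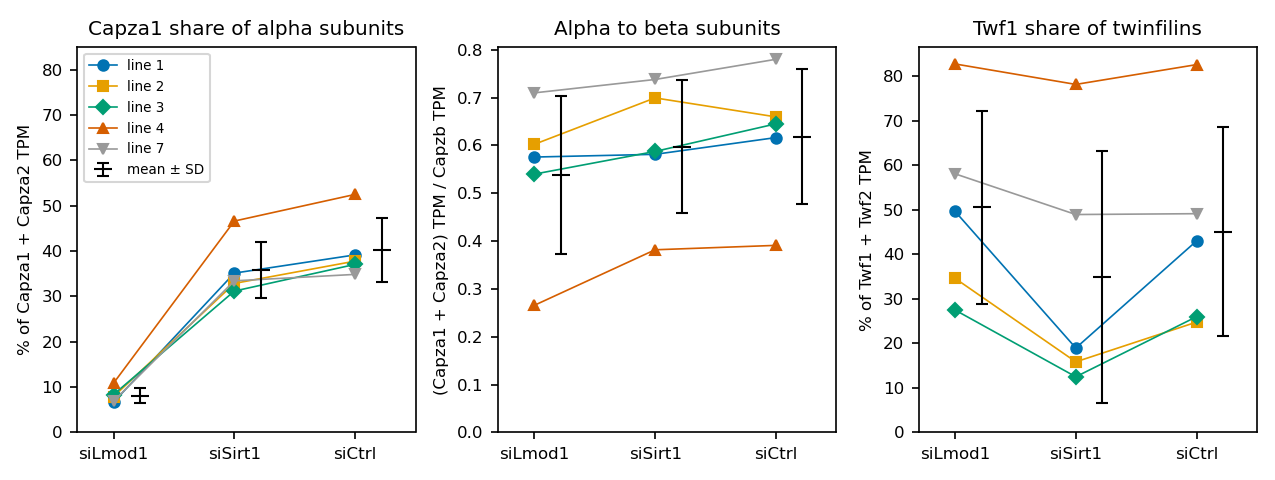
Share of Capza1 in alpha-subunit TPM, ratio of alpha-subunit to beta-subunit TPM, and share of Twf1 in twinfilin TPM, for each library. Drawn lines join the 3 libraries that share a replicate number, and black bars give the mean ± SD of 5. The Capza1 share lies at 6.67% to 10.9% in siLmod1, 31.2% to 46.6% in siSirt1 and 34.9% to 52.5% in siCtrl, and line 4 has the highest Twf1 share in each group.

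Capg (ENSMUSG00000056737, mm10 chromosome 6, 72544391 to 72562983, plus strand), which caps filaments as a monomer, varied from line to line. In each knockdown its difference from siCtrl changed sign between lines. It was at 69.2, 25.7, 46.4, 47.5 and 20.9 TPM in siLmod1, at 64.4, 19.1, 35.9, 73.3 and 61.9 TPM in siSirt1, and at 63.5, 27.3, 58.2, 33.1 and 27.9 TPM in siCtrl. The groups overlapped throughout, and siLmod1 was above siCtrl in 2 of 5 lines. In siSirt1, lines 4 and 7 were above their siCtrl libraries by 0.91 and 0.97 on the log2 CPM scale, while lines 1, 2 and 3 differed by -0.16, -0.60 and -0.71. The 13 macrophage markers summed to 3.95 to 15.9 CPM in all libraries, and Capg itself was at 15.6 to 55.5 CPM. Among the markers, Adgre1, Tyrobp and Ptprc were at 0.178 CPM or less. Others were higher, with Cd14 up to 6.98 CPM and Csf1r up to 5.99 in siLmod1 and Itgam up to 6.56 in siSirt1. The part of macrophages in the values of Capg was not tested.

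Twf1 (ENSMUSG00000022451, mm10 chromosome 15, 94577951 to 94589889, minus strand) encodes twinfilin 1. It was at 86.99, 50.7, 43.8, 177.3 and 69.6 TPM in siLmod1, at 24.7, 24.7, 18.4, 112.7 and 57.2 TPM in siSirt1, and at 67.5, 35.9, 41.8, 148.5 and 58.4 TPM in siCtrl. Line 4 was the highest in each group, and the groups overlapped, with the lines far apart. Within each line siLmod1 was above siCtrl, by 0.07 to 0.42 on the log2 CPM scale (mean 0.25 ± 0.14, SD, n = 5 lines). The fitted difference of siLmod1 was 0.22 (SE 0.50), and 0.24 (SE 0.058) with the line as a block, but leaving out 1 library without the block moved it between -0.26 and 0.75. The exons of Twf1 share 395 bases with Irak4 on the opposite strand, which had 385 reads at most, and its pseudogene Gm4887 had 8 at most.

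Twf2 (ENSMUSG00000023277, mm10 chromosome 9, 106203108 to 106215389, plus strand) encodes twinfilin 2, with a coding sequence 65.4% identical to that of Twf1. It was at 88.2, 95.8, 115.6, 36.9 and 50.2 TPM in siLmod1, at 105.6, 131.0, 129.1, 31.5 and 59.7 TPM in siSirt1, and at 89.4, 109.0, 119.1, 31.2 and 60.4 TPM in siCtrl. Here line 4 was the lowest in each group, the reverse of its place for Twf1. Twf2 did not lie on one side of siCtrl in all 5 lines of either knockdown: siLmod1 was above siCtrl in 1 line and siSirt1 in 3.

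In siLmod1 against siCtrl, 1 of the 6 genes was called without the block, Capza1 as lower, where 0.113% of the 15022 genes tested were called. With the line as a block 4 were called (Capza1 and Capzb as lower, Capza2 and Twf1 as higher), where 29.5% of all genes were. The blocked fit of all 15 libraries called 2, with 1427 genes called in all. Blocked fits without line 1, 2 or 7 called 3 each, where 18.8%, 24.9% and 21.9% of all genes were. The genes were chosen on this contrast, so nothing is read from these counts. In siSirt1 against siLmod1, which shares the siLmod1 libraries, the within-line log2 CPM difference averaged 2.40 ± 0.23 for Capza1, -0.27 ± 0.07 for Capza2 and -1.11 ± 0.57 for Twf1 (SD, n = 5 lines), each with the same sign in 5 of 5 lines, and is likewise only described.

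In siSirt1 against siCtrl, Twf1 was below siCtrl in 5 of 5 lines, by -1.63, -0.63, -1.19, -0.64 and -0.21 on the log2 CPM scale in lines 1, 2, 3, 4 and 7, a mean fold of 0.551. Capza1 was also below siCtrl in 5 of 5 lines, by -0.23, -0.30, -0.47, -0.42 and -0.25, a mean fold of 0.793, which is given as a description. Its fitted log2 fold change was -0.33 (SE 0.15), and -0.33 (SE 0.077) with the line as a block. Of the 5 genes tested, edgeR's quasi-likelihood test on the group alone called 0, where 0.127% of the 14912 genes tested were called. None of the 5 had an unadjusted p under 0.05 there, against 1440 of all genes, and DESeq2 on the group alone also called 0, where it called 1.98% of all genes. With the line as a block 1 of the 5 was called, Twf1 as lower, where 7.07% of all genes were called and 4.35% were called lower.

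For Twf1 the edgeR fit gave a log2 fold change of -0.74 (SE 0.57, adjusted p = 0.74), and with the block of -0.85 (SE 0.19, adjusted p = 0.0376). Without the block, leaving out the siCtrl library of line 4 moved it to -0.21, and leaving out the siSirt1 library of line 4 moved it to -1.37. The call with the block was not firm. When both libraries of 1 line were left out of the blocked edgeR fit, the adjusted p of Twf1 was 0.0775, 0.0775, 0.101, 0.0746 and 0.0331 without line 1, 2, 3, 4 and 7, so it passed without line 7 only. The siSirt1 library of line 1, whose pairing is less sure, carried the largest difference of Twf1, and without that line the blocked log2 fold change was -0.67.

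The other 4 genes were not called in siSirt1 with or without the block. With the block, their log2 fold changes were -0.06 for Capza2 (SE 0.074, edgeR adjusted p = 0.66), -0.12 for Capzb (SE 0.077, adjusted p = 0.389), 0.085 for Capg (SE 0.27, adjusted p = 0.881) and -0.012 for Twf2 (SE 0.092, adjusted p = 0.953). The direction of such small differences also depends on the scale: the median of all genes was 0.14 higher in siSirt1 than in siCtrl on the log2 TPM scale and 0.003 higher in TMM-scaled CPM. On the TPM scale Capza2 and Twf2 were thus higher in siSirt1 in 4 of 5 lines. Relative to the median of all genes on that scale, Capza2 was at -0.06 and Capzb at -0.12. Capza1 and Twf1 were lower in 5 of 5 lines on both scales, at -0.34 and -0.86 relative to that median.

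Within the twinfilins, Twf1 took 18.96%, 15.8%, 12.5%, 78.2% and 48.95% of the summed TPM in siSirt1 and 43.0%, 24.8%, 26.0%, 82.6% and 49.1% in siCtrl, for lines 1, 2, 3, 4 and 7. The share was lower in siSirt1 in 5 of 5 lines, by the least in line 7. The mean difference of -10.2 percentage points did not pass the exact permutation test of 5 against 5 libraries (p = 0.492, or 0.738 adjusted over the 3 ratios computed), and the exact sign-flip test within lines gave p = 0.0625, the smallest that 5 pairs allow. Without the siSirt1 library of line 4 the difference was -21.1 points, and without the siCtrl library of line 4 it was -0.855. In siLmod1 the share was 49.7%, 34.6%, 27.5%, 82.8% and 58.1%, above siCtrl in each line.

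The line, as numbered, rather than the knockdown held most of the spread of 5 of the 6 transcripts. Of the variance in log2 CPM over the 15 libraries, the line held 96.8% for Twf2, 91.8% for Capzb, 76.4% for Capza2, 68.8% for Twf1 and 64.0% for Capg. The group held 1.12% for Capg, and the rest of its variance lay in neither. For Capza1 the line held 2.01% and the group 97.5%. Averaged over the 3 libraries of a line, line 4 was the highest of the 5 lines for Twf1 (146.2 TPM) and Capzb (458.9) and the lowest for Twf2 (33.2) and Capza2 (95.7). For Capg it lay between the others, at 51.3 TPM in a range of 24.0 to 65.7. In the same 3 libraries the endothelial marker Tek was at 41.9 CPM or more, whereas the other endothelial markers, Pecam1, Cdh5, Kdr and Emcn, reached 2.05 CPM at most in any library. The part of other cell types in these line differences was not tested. Across the 15 libraries, Twf1 and Twf2 ran against each other (Pearson r of log2 CPM -0.82), and Capzb ran with Twf1 (0.63) and against Capza2 (-0.69). These are descriptions over libraries that share 5 lines.

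Other markers differed between the groups. The 7 fibroblast markers, nearly all of it Col3a1, summed to 91.2 to 312 CPM in siLmod1, 112 to 737 in siSirt1 and 129 to 531 in siCtrl, lower in siLmod1 than siCtrl in 5 of 5 lines; Lum and Dpt were at 0.1 CPM or less. The 7 pericyte and smooth muscle markers, nearly all of it Acta2, summed to 2230 to 5724 CPM in siLmod1, 1399 to 4592 in siSirt1 and 2986 to 6359 in siCtrl, lower in siSirt1 than siCtrl in 5 of 5 lines. Mitochondrially encoded transcripts took 2.82 ± 0.43% of counts in siLmod1, 2.46 ± 0.40% in siSirt1 and 2.34 ± 0.30% in siCtrl (SD, n = 5), above siCtrl in 5 of 5 lines in siLmod1 and in 4 of 5 in siSirt1. Their part in the results for the 6 genes was not tested.

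The genes most like each member were those with the highest Pearson r of log2 CPM with it over the 15 libraries, among 10298 genes that averaged at least 5 CPM. For Capza1 they were Erh (0.98), Tbc1d10b (0.97) and Alg10b (0.96). For Capza2 they included Tbc1d24 (0.95) and Slc8a1 (0.94), and for Capzb they were Slc2a13 (0.96), Adarb1 (0.96) and Tpd52 (0.96). For Twf1 they were Washc4 (0.97), which encodes a subunit of the WASH complex, Rtn3 (0.97) and Sgpl1 (0.96), and for Twf2 they were Sptbn5 (0.97), Arhgef5 (0.97) and Flcn (0.97). For Capg the likeness was weaker, with Snf8, Arl2bp and P3h3 between 0.86 and 0.87. The 15 points share their lines and groups, and for the genes other than Capza1 the likeness mostly follows the differences between lines.

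The 3′ untranslated regions (UTRs) of Capza1 and Twf1 carried words of 7 bases whose carriers were among the lowest in the 2 knockdowns. The words were searched on the transcript strand. For each word carried by 300 genes or more, the median blocked log2 fold change of its carriers was set against that of all other genes with a UTR. In siLmod1, ATGAACC was at rank 3 of 12687 words and at rank 1 once UTR length and base composition were fitted out: its 906 carriers (7.12% of 12725 genes) had a median of -0.093, and the others had -0.008. The 2 words ahead of it, like 9 of the first 10, contain CG. In siSirt1, GTGAATA was at rank 1 of 12681 words, with a median of -0.076 over 1270 carriers (10% of genes) and 0.013 over the others. It was at rank 2 once length and composition were fitted out. CATATAC, at rank 2 and then at rank 1, had nearly the same difference between medians (-0.0869, and -0.0888 for GTGAATA). None of the 6 genes carried CATATAC. Among the 6 genes, Capza1 alone carried ATGAACC, once in a UTR of 2205 bases, and Twf1 alone carried GTGAATA, at 2 places in a UTR of 1869 bases. These are the longest UTRs of the 6, the others holding 108 to 1537 bases, and the carrier shares above were not matched for length. Capza1 also carried TGAACCA (rank 12) at bases 617 to 623 and TGAACCT (rank 13) at bases 149 to 155, away from its ATGAACC site. High-ranking words also lay in members that were not lower: Twf1 carried CGCCCCC (rank 6 in siLmod1) and GAAGCGA (rank 19), while it was above siCtrl in siLmod1 in 5 of 5 lines, and GAATAAA (rank 8 in siSirt1) was in the UTR of Twf2 as well as in that of Capza1. The sites are shown because these are the 2 members with the largest differences, from the GENCODE M21 transcripts, 5′ to 3′, with the word in capitals:
Capza1, bases 1494 to 1500 of the UTR: caaagctggaATGAACCaaagtgaaaa
Twf1, bases 957 to 963 of the UTR: tcttgtttcaGTGAATAatgtctcaga
Twf1, bases 1771 to 1777 of the UTR: gacaatagatGTGAATAacatccccaa
A match is only a description: each word occurs in many UTRs, words that overlap these sites such as TGAACCA and TGAATAA ranked high too, the ranking used the same fits as the values above, and whether the small interfering RNAs pair with them was not tested.

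Genes related to the capping proteins were followed in 8 lists with 67 genes. They are called partner genes here whether or not their products bind capping protein. The lists were drawn up with earlier results of these data known. Their counts beside the share of all genes, and their p-values, are therefore descriptive. Their values come from the edgeR fit with the line as a block. Without the block edgeR called 0 of them in siLmod1 and 0 in siSirt1 against siCtrl, with 5 and 8 at an unadjusted p under 0.05, and DESeq2 called 1 (Avil), where it called 1.64% of all genes, and 2 (Dctn4 and Tcap). The p-values were adjusted over all genes. With the block, 21 of 59 tested partners were called in siLmod1 (8 higher and 13 lower), or 35.6%, against 29.5% of all genes (12.9% higher and 16.5% lower). In siSirt1, 7 of 60 were called (1 higher and 6 lower), or 11.7%, against 7.07% of all genes (2.72% higher and 4.35% lower). DESeq2 with the block called 22 in siLmod1 and 14 in siSirt1, where it called 28.8% and 14.2% of all genes. Of the edgeR calls, 11 of the 21 and 2 of the 7 (Tcap and Tmsb10) were also called in each fit that left out 1 line. Those fits called 18.8% to 28.1% of all genes in siLmod1 and 2.2% to 3.85% in siSirt1. Without line 1, whose siSirt1 library is less surely paired, Tcap and Tmsb10 alone of the 60 were called in siSirt1, where 2.2% of all genes were. The medians of the lists in siLmod1 lay between -0.37 for the Ena/VASP proteins and 0.094 for the WASH complex, beside -0.010 over all genes. In siSirt1 they lay between -0.53 for the Z-disc list and 0.20 for the adducins and Eps8 family, beside 0.007.

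Of the 3 Ena/VASP proteins, which elongate filaments at the barbed end in competition with capping protein, all 3 were called lower in siLmod1 with the block, where 16.5% of all genes were, and each was lower in 5 of 5 lines. Without the block none was called (edgeR adjusted p = 0.492 for Vasp, 0.85 for Enah and 0.41 for Evl; 2 at an unadjusted p under 0.05; 0 called by DESeq2). Vasp averaged 259.5 ± 37.2 CPM in siLmod1 and 335.7 ± 62.2 in siCtrl (log2 fold change -0.37, SE 0.053, adjusted p = 0.000738). Enah was at 338.8 ± 130.0 CPM in siLmod1 and 426.7 ± 150.0 in siCtrl (-0.36, SE 0.057, adjusted p = 0.00117), and Evl at 18.0 ± 1.98 CPM in siLmod1 and 24.1 ± 4.77 in siCtrl (-0.42, SE 0.079, adjusted p = 0.00335). In siSirt1 0 of the 3 were called by edgeR or DESeq2 with the block, and 1 had an unadjusted p under 0.05, Evl (0.32, edgeR adjusted p = 0.0876). Evl was also the 1 partner gene that edgeR called in siSirt1 against siLmod1 without the block, at 29.9 ± 3.97 CPM in siSirt1 and 18.0 ± 1.98 in siLmod1 (edgeR adjusted p = 0.0283, and 0.00585 with the block), where 1.53% of all genes were called. DESeq2 without the block called 5 partners there (Dctn4, Des, Evl, Flii and Tcap), where it called 5.69% of all genes.

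Among 9 tested regulators that bind capping protein, 1 was higher and 2 lower in siLmod1 with the block, where 12.9% and 16.5% of all genes were. Cd2ap, an adaptor with a capping-protein-interaction motif, was higher in siLmod1 at 81.1 ± 7.54 CPM against 67.1 ± 9.70 in siCtrl (log2 fold change 0.27, edgeR adjusted p = 0.00327, 5 of 5 lines). Cracd, which inhibits capping protein, was lower at 3.13 ± 1.79 CPM against 7.07 ± 5.11 in siCtrl (-1.13, adjusted p = 0.000552, 5 of 5 lines). Sh3kbp1, an adaptor related to Cd2ap, was lower at -0.26 (adjusted p = 0.0473). In siSirt1 0 of the 9 were called by edgeR with the block, where 7.07% of all genes were, and 4 had an unadjusted p under 0.05. DESeq2 with the block called 2, Cd2ap and Cracd, where it called 14.2% of all genes. In edgeR Cd2ap was at 0.36 (adjusted p = 0.0563, above siCtrl in 5 of 5 lines) and Cracd at -0.96 (adjusted p = 0.109).

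Dynactin and the WASH complex contain capping protein as a stable subunit. Dynactin, whose short filament of the actin-related protein Arp1 is capped by it, had 1 of 9 subunits called higher in siLmod1, Dctn3 (0.21, adjusted p = 0.028), and 1 lower in siSirt1, Dctn4 (-0.57, adjusted p = 0.0165). DESeq2 with the block called Dctn2 in siSirt1 as well as Dctn4, and Dctn2 was at -0.33 in edgeR (adjusted p = 0.0909). The WASH complex of endosomes had 1 of 5 called in siLmod1, Washc4 (0.16, adjusted p = 0.036), and 0 of 5 in siSirt1 by edgeR or DESeq2 with the block (1 at an unadjusted p under 0.05). Over all genes, the blocked edgeR fit called 29.5% in siLmod1 and 7.07% in siSirt1.

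Of the other families that act on filament ends, the gelsolin family had 4 tested members. With the block 3 were called in siLmod1 and 1 in siSirt1, where 29.5% and 7.07% of all genes were. In siLmod1 Avil, which encodes advillin, was higher (0.84, adjusted p = 0.00196, at 3.42 ± 0.73 CPM against 1.90 ± 0.39 in siCtrl), and Svil (-0.17, adjusted p = 0.0182) and Gsn (-0.28, adjusted p = 0.0475) were lower. In siSirt1 the family's Flii was lower (-0.37, adjusted p = 0.0407). Of the adducins, which cap filaments at the membrane skeleton, and the Eps8 family, 1 of 5 was called in siLmod1, Eps8, just inside the threshold (-0.68, adjusted p = 0.0497), and 0 of 6 in siSirt1 by edgeR or DESeq2 with the block (1 at an unadjusted p under 0.05).

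The list of ADF homology proteins and monomer binders, to which the twinfilins are related, had 2 higher and 3 lower of 13 in siLmod1. With the block 12.9% and 16.5% of all genes were. In siSirt1 1 was higher and 1 lower, where 2.72% and 4.35% of all genes were. Dbn1, the filament side-binding protein drebrin, was lower in siLmod1 at 151.4 ± 39.5 CPM against 216.3 ± 58.3 in siCtrl (-0.52, adjusted p = 4.78e-05), and Gmfb was lower as well (-0.19, adjusted p = 0.0106). Cap1, which recycles actin monomers together with cofilin, was higher in both knockdowns, by 0.36 in siLmod1 (adjusted p = 0.00195) and 0.41 in siSirt1 (adjusted p = 0.0476). Both contrasts share the siCtrl libraries. Cfl1, cofilin 1, was higher in siLmod1 (0.21, adjusted p = 0.0151). Tmsb10, a thymosin that holds actin monomers, fell to 1207 ± 632 CPM in siSirt1 against 2159 ± 843 in siCtrl (-0.90, edgeR adjusted p = 0.00689, n = 5 each), lower in 5 of 5 lines.

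Of the 12 tested genes in the Z-disc list, 3 were called lower in siSirt1 with the block, where 4.35% of all genes were. None was called higher. DESeq2 with the block called 5, where it called 14.2% of all genes. Tcap, the titin cap, was at 12.7 ± 4.98 CPM in siSirt1 and 54.1 ± 27.3 in siCtrl (-2.0, adjusted p = 0.00244), Actn3, an alpha-actinin of fast fibres, was at -0.82 (adjusted p = 0.0286), and Ldb3, a Z-disc scaffold, was at -1.0 (adjusted p = 0.0462), each in 5 of 5 lines. Of these, Tcap was called in each of the 5 fits that left out 1 line, Actn3 in 1 of them, without line 2, and Ldb3 in 0. In siLmod1, 2 of the 12 were higher and 2 lower with the block, where 12.9% and 16.5% of all genes were. Actn3 (0.35, adjusted p = 0.00187) and Nrap (0.35, adjusted p = 0.0356) were higher, and Myoz2 (-0.79, adjusted p = 0.000144) and Ldb3 (-0.24, adjusted p = 0.0125) were lower. Actn3 thus had opposite signs in the 2 knockdowns, at 594.1 ± 228 CPM in siLmod1, 293.3 ± 176 in siSirt1 and 472.3 ± 207 in siCtrl (SD, n = 5).

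**Figure D4:**
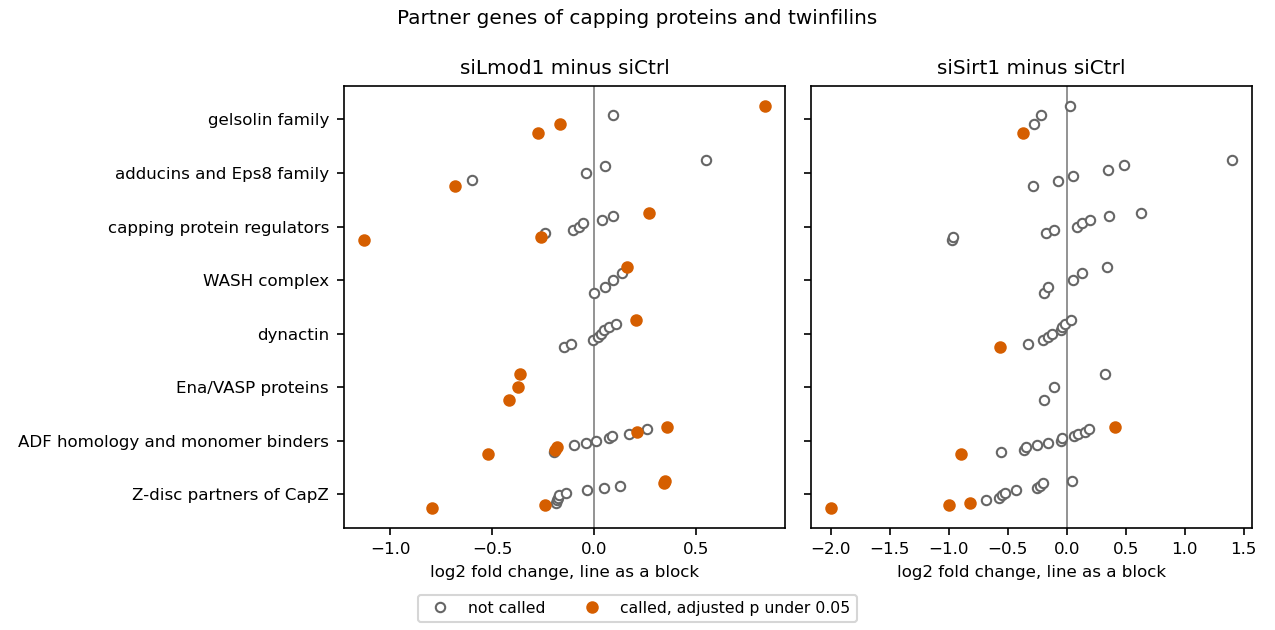
Log2 fold change from the edgeR fit with the line as a block for the tested partner genes in 8 lists (rows), for siLmod1 minus siCtrl (left) and siSirt1 minus siCtrl (right; the horizontal scales differ). Each circle is a gene and filled circles passed an adjusted p of 0.05; the 3 Ena/VASP genes lie at -0.42 to -0.36 at left, and the lowest point at right is Tcap at -2.0.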

How the data were processed

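The authors deposited raw counts per Ensembl gene and TPM values for each pair of groups; per the submitters' processing notes they used build mm10 and DESeq2, and the sources used here do not name the aligner, the counter or the annotation. No value of a library differed between tables that hold it. Symbols, coordinates and UTRs come from GENCODE M21 (mm10), which named 48970 of 49315 IDs. Close copies were searched with BLAST 2.17.0.

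For each pair of groups, genes were filtered with filterByExpr, scaled by TMM and tested on the group with edgeR 4.0.16 (R 4.3.3), with Benjamini-Hochberg adjustment over all genes and a threshold of 0.05. After group means were removed, libraries with the same replicate number correlated over 15716 genes at 0.278 to 0.889 (15 pairs) and others at -0.517 to 0.269 (60 pairs). The numbers were therefore taken as lines that pair the samples, and blocked values are given as well. DESeq2 1.42.0, other scaling, no filter, a fit of all 15 libraries and left-out libraries were alternatives. Fits with the block in DESeq2 or over all 15 libraries, and blocked fits without a line, were added after the data were seen. CPM are TMM-scaled, except Lmod1 and Sirt1, given per library total; 3 counts are 0.0893 to 0.143 CPM, a limit of counting error only. The p-values speak for these 5 lines with 1 transfection each. Partner genes named with values were, per list, the 4 with the smallest blocked p in each contrast with siCtrl. The 6 genes, the partner lists and the marker lists were chosen with earlier results of these data known. The fits were tested on simulated counts.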

Additional observations from a re-analysis of the deposited data

Results flagged for a closer look

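All 6 values that stood apart within a group of 5 belonged to line 4, out of 27 groups screened; chance alone marks about 1 in 20 groups, and the 3 libraries of a line are not independent. Capzb in line 4 was at 490.1 CPM in siLmod1, where the other 4 libraries lay between 256.1 and 302.6. It was at 461.7 CPM in siSirt1, with the others at 279.2 to 323.3, and at 536.5 CPM in siCtrl, with the others at 301.0 to 366.4. Twf1 in line 4 was at 160.2 CPM in siCtrl, with the others at 37.7 to 65.7. The share of Capza1 in alpha-subunit TPM in line 4 was 46.61% in siSirt1, with the others at 31.2% to 35.1%, and 52.49% in siCtrl, with the others at 34.9% to 39.2%. In each case the gap to the nearest library took more than 0.71 of the group's range.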

How the results depend on the processing

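The counts of called genes depended most on whether the line was in the model. The order below is siLmod1 against siCtrl, siSirt1 against siCtrl and siSirt1 against siLmod1, where edgeR on the group alone called 17, 19 and 229 genes. With the line number as a replicate block it called 4430, 1054 and 2379. DESeq2 on the group alone called 257, 287 and 924, and with the block 3974, 1940 and 3132. Without a filter on low counts 6, 7 and 90 were called; a fit of all 15 libraries called 38, 150 and 554, and with the block 1427, 2530 and 4210. Leaving out 1 line of the blocked fit gave 2833, 332 and 1042 without line 1, 3758, 411 and 1771 without line 2, 3534, 398 and 946 without line 3, 4264, 525 and 1395 without line 4, and 3314, 580 and 1662 without line 7. Leaving out 1 library without the block gave 3 to 10, 3 to 13 and 54 to 247 genes.

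In siSirt1 against siCtrl, 2 of the 6 genes passed the threshold with the block in edgeR, in DESeq2 and over all 15 libraries: Twf1, and Capza1, which is only described. These fits called 7.07% of all genes in edgeR, 14.2% in DESeq2 and 2530 genes over all 15 libraries. In the blocked fit without line 7, 1 of the 6 passed, where 3.85% of all genes were called. The block changed no other call of a member there. In siLmod1 against siCtrl, where the members are described, the block gave 4 in edgeR and DESeq2, 2 over all 15 libraries, and 3 or 4 without 1 line. The share of all genes called was 29.5% in edgeR, 28.8% in DESeq2 and 18.8% to 28.1% without 1 line. Over all 15 libraries 1427 genes were called. Capza1 and Twf1 in siSirt1 stayed below 0 in each setting fitted. Twf2, at 0.054 on the group alone, turned to -0.0118 with the block, -0.0079 with it over all 15 libraries, -0.0194 with it in DESeq2, and -0.0427, -0.0641 and -0.0426 with it without lines 1, 2 and 3. Capg turned to -0.1355 and -0.1392 in the blocked fit without line 4 and line 7. Leaving out 1 library without the block moved Twf2 between -0.161 and 0.263, Capg between -0.0453 and 0.338, Capza2 between -0.1435 and 0.0162, Capzb between -0.282 and 0.053, and Twf1 between -1.3657 and -0.2088. It moved the difference in the Capza1 share between -7.118 percentage points, without the siSirt1 library of line 4, and -1.369, without the siCtrl library of line 4. The difference in the alpha-to-beta ratio was 0.0330 without the siSirt1 library of line 4 and -0.0778 without the siCtrl library of line 4, and that in the Twf1 share lay between -21.06 and -0.8549 without the same libraries. The causes were not tested. With 5 lines, a sign-flip test cannot pass 0.05, and differences the size of those of Capza2 or Twf2 lie within the error of these fits.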
